A study of Rattus norvegicus with 18 samples.

Results

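Ephx2 encodes soluble epoxide hydrolase. The results below follow this 1 gene of the 32883 in the count table, ENSRNOG00000017286 on chromosome 15 of the rat build Rnor_6.0 (42757235 to 42794279, minus strand), through the visceral white adipose tissue (vWAT) of 18 male rats. The table lists genes by Ensembl identifier alone, and the symbol was given to this identifier by its locus. RefSeq's Ephx2 lies on the same chromosome of the assembly GRCr8, between Adam2 and Chrna2. The gene was selected on these same read counts, with its higher level in both hypertensive groups than in WKY already known, so its differences from normotensive rats are given as a description and without a test.

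The 3 groups held 6 rats each. The WKY group was the normotensive Wistar-Kyoto strain. The SHR-Water group was the spontaneously hypertensive strain on tap water. The SHR-TMAO group was the same hypertensive strain with 1 g/L trimethylamine N-oxide (TMAO), a metabolite that arises from gut bacteria, in its drinking water. Both hypertensive groups were 7 to 8 weeks old at the start and were kept so for 22 weeks. The age of the WKY rats and the length of their time on water are not given in the sources used here. All rats ate a standard laboratory diet and were housed 3 to a cage. Which rats shared a cage is not given in the sources used here, so the tests below treat each rat as independent. No WKY rats received TMAO, so the effect of TMAO in WKY is not analysed here. The 2 hypertensive groups differ by the treatment, SHR-Water differs from WKY by strain, with everything that separates the strains, and SHR-TMAO differs from WKY by both strain and TMAO, which cannot be told apart in that comparison.

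Soluble epoxide hydrolase adds water to epoxides of fatty acids. Its best known substrates are the epoxyeicosatrienoic acids, which cytochrome P450 epoxygenases make from arachidonic acid and which relax blood vessels and dampen inflammation. The enzyme turns them into diols that are mostly less active. A second domain of the same protein is a phosphatase of lipid phosphates. The enzyme is found in the cytosol and in peroxisomes, is abundant in liver and kidney and is also present in adipose tissue, and its inhibitors have been studied as blood pressure lowering agents.

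The gene model of the table has 19 exons that sum to 2125 bases, 5.74% of a span of 37045 bases. The first exon has 232 bases and is followed by the longest intron, of 6611 bases, and the last exon has 408 bases. No other gene of the table overlaps this span on either strand. Reads were counted over all exons together, so the values describe the whole gene and say nothing of single exons or transcripts.

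Between 10774133 and 18874161 reads per rat were assigned to genes. Genes of the mitochondrial genome took from 7.08% to 28.5% of them. Longer genes read relatively high in some libraries and low in others (Spearman's rho across genes, between exon length and deviation from the mean, of -0.408 to 0.450). No 2 rats of a group were alike within sampling noise (chi-square over degrees of freedom of at least 13.2 in every pair). The defining markers of adipose tissue were not analysed here, since they need gene names. In bulk tissue a difference in the number of cells of a type cannot be told apart from a difference in RNA per cell.

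Ephx2 was low in every WKY rat and high in every SHR. In the 6 WKY rats it had 108, 202, 229, 139, 213 and 181 reads (replicates 1 to 6). In SHR-Water it had 2226, 3228, 2938, 3090, 2950 and 2798 reads, and in SHR-TMAO 2947, 2559, 3638, 2571, 3073 and 3614. The lowest count of an SHR was thus far above the highest count of a WKY rat, although WKY libraries were among both the shallowest and the deepest.

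Scaled to counts per 1000000 (CPM) of a library total that was adjusted by TMM normalization, the WKY rats had 9.62, 9.81, 20.6, 8.96, 13.0 and 11.5. The level was 12.3 ± 4.35 CPM (SD, n = 6). Replicate 3 was the high rat of this group, and its 95% Poisson interval of 18.03 to 23.5 CPM, which covers counting error only, lay above the intervals of the other 5 rats. Without it the WKY level was 10.6 ± 1.65 CPM (SD, n = 5).

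The SHR-Water rats had 152.5, 182.7, 166.2, 168.5, 205.5 and 171.0 CPM, a level of 174.4 ± 18.05 (SD, n = 6). The SHR-TMAO rats had 203.7, 184.1, 209.5, 162.0, 171.3 and 193.4 CPM, a level of 187.3 ± 18.5 (SD, n = 6). The ranges of the hypertensive groups overlapped almost entirely, and neither came near the WKY range.

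**Figure D1:**
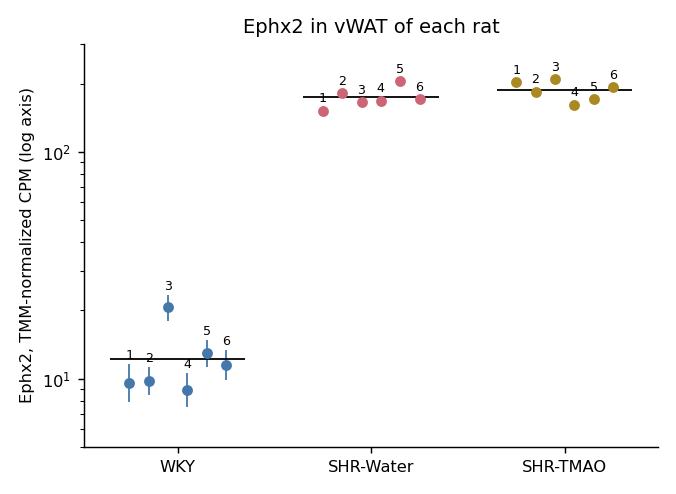
Ephx2 in each rat, as TMM-normalized CPM on a log axis, by group. Points are rats with their replicate numbers, vertical bars are 95% Poisson intervals of the counts, and horizontal lines are group means (WKY 12.3 CPM, SHR-Water 174.4 CPM, SHR-TMAO 187.3 CPM), with no SHR below 152.5 and no WKY rat above 20.6.

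The mean of SHR-Water was 14.2 times that of WKY, and the mean of SHR-TMAO 15.3 times. Over the 36 pairs of a WKY and an SHR-Water rat the ratio ran from 7.40 to 22.9 with a median of 15.9, and over the 36 pairs with SHR-TMAO rats from 7.86 to 23.4 with a median of 17.2. Every ratio was above 1. Fitted by edgeR, the log2 fold change was 3.81 with a standard error of 0.21 for SHR-Water minus WKY, and 3.92 with a standard error of 0.21 for SHR-TMAO minus WKY. Both of these differences use the same WKY rats and are not independent of each other. Without WKY replicate 3 they were 4.01 and 4.15.

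Groups that did not overlap, with the hypertensive rats higher, were found in 1.59% of the 13017 genes tested between SHR-Water and WKY and in 2.03% of the 12833 tested between SHR-TMAO and WKY. A gene is called here when its p-value, adjusted by Benjamini-Hochberg, is under 0.05 and its log2 fold change reaches 1 in size, and 1.29% and 1.45% of genes were called higher. These shares give the background for a gene that was picked for this difference.

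The order of the group levels was WKY, SHR-Water and SHR-TMAO, and the step between the hypertensive groups was smaller than the spread between rats. SHR-TMAO rats were higher than SHR-Water rats in 26 of 36 pairs. The log2 fold change of SHR-TMAO minus SHR-Water was 0.13 with a standard error of 0.10, and its 95% interval ran from -0.09 to 0.36, which is a fold of 0.939 to 1.28. The adjusted p-value over the 12852 genes tested was 0.437 by edgeR's quasi-likelihood test (unadjusted p = 0.225). An exact two-sided permutation test of mean log2 CPM over all 924 splits of these 12 rats gave p = 0.238, where the smallest value that 6 rats against 6 allow is 0.00216. A change of Ephx2 with TMAO was therefore not detected. The interval holds for this setting of the fit and is not a ceiling on the change. With the gene length trend as an offset, the log2 fold change was 0.20 (edgeR unadjusted p = 0.172). Of the genes tested, 73.0% had a larger absolute difference between these groups. No gene of the whole table (0%) passed the thresholds in this comparison with edgeR. There were 3212 genes (25%) at an unadjusted p under 0.05 by edgeR. DESeq2 called 405 of the 13696 genes to which it gave an adjusted p (2.96%), and limma voom 1087 of 12852 (8.46%).

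Against all other genes, Ephx2 ranked higher in both hypertensive groups than in WKY. Levels between genes are compared here per exon length, as FPKM, the CPM of the plain library total divided by exon length in kilobases. In WKY the level of 5.84 ± 2.18 FPKM (SD, n = 6) ranked 6595 of the 21505 genes with at least 1 count, above 69.3% of genes. In SHR-Water the level of 84.6 ± 12.2 FPKM (SD, n = 6) ranked 866, above 95.97% of genes. In SHR-TMAO the level of 85.6 ± 11.3 FPKM (SD, n = 6) ranked 940, above 95.6% of genes. The median gene of each group had 1.28 FPKM (WKY), 1.45 FPKM (SHR-Water) or 1.18 FPKM (SHR-TMAO).

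Between SHR-Water and WKY the log2 fold change of Ephx2 was the 11th highest of 13017. The 10 genes with a larger rise differed from it in their starting level. In WKY, 9 of them had under 1 CPM on average, with a median over the 10 of 0.290 CPM, and none of the 10 was above the WKY level of Ephx2. A single one of them had more CPM than Ephx2 in SHR-Water. A gene near zero in WKY enters the test through its SHR-Water counts and reaches a high fold more readily. Such a low start is therefore partly set by how the genes were filtered and ranked. Ephx2 was read at 108 or more counts in each WKY rat. In absolute size its log2 fold change ranked 27 of 13017 between SHR-Water and WKY and 30 of 12833 between SHR-TMAO and WKY, while the median absolute log2 fold change was 0.30 and 0.25.

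**Figure D2:**
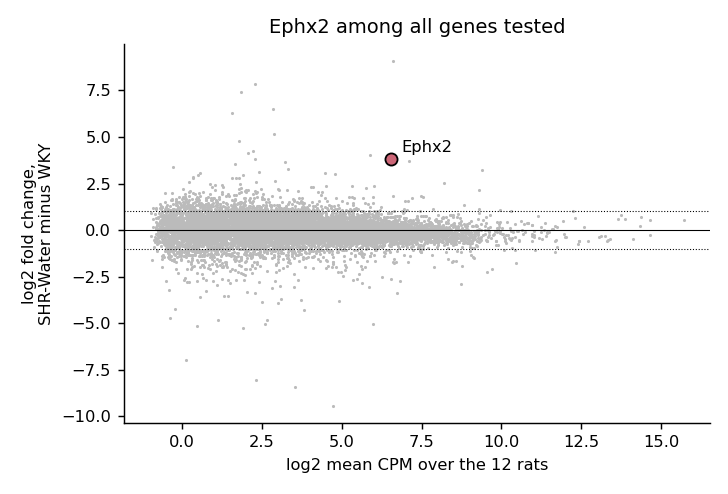
Mean level (log2 CPM over the 12 rats compared, horizontal) and log2 fold change of SHR-Water minus WKY (vertical) of the 13017 genes tested, each a point. Ephx2 is the ringed point at 3.81, dotted lines mark a log2 fold change of 1 in either direction, and most genes with larger rises lie to its left, at lower mean levels.

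The spread of Ephx2 between rats was small in the hypertensive groups and larger in WKY. The CPM of SHR-Water rats had a coefficient of variation of 10.3% and that of SHR-TMAO rats one of 9.86%, where counting error alone would give 1.88% and 1.82%. Among genes whose mean was within 1.25-fold of that of Ephx2, the median coefficient of variation was 19.3% in SHR-Water (333 genes) and 15.9% in SHR-TMAO (342 genes), and 17.1% and 20.8% of those genes varied less than Ephx2. In WKY the coefficient was 35.5% with 7.74% from counting, against a median of 24.3% over 1309 genes of like level, of which 73.0% varied less. Much of this WKY spread came from replicate 3, since the SD was 4.35 CPM with it and 1.65 CPM without it (n = 5). The comparison with genes of like level is not given here without that rat, so it does not show Ephx2 as more variable in WKY generally. These are descriptions of 6 rats per group.

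None of the tested genes around Ephx2 had a difference between strains near its size. Within 1 Mb of its ends the table lists 29 other genes, of which 23 had at least 1 count and 12 had enough counts to be tested. Of these 12, 0 were called higher and 1 lower in SHR-Water than in WKY, where 3.42% of all genes tested were called (2.13% lower). The other 11 lay between -1.01 and 1.01 on the log2 scale of fold changes. The median of the 12 was -0.03, beside -0.00 for all genes. With no limit on the fold the same 1 of 12 was called, where 6.13% of all genes were. Without WKY replicate 2 edgeR called 2 of the 12, of which 1 was higher. DESeq2 called 2 of the 17 neighbours to which it gave an adjusted p, both lower, where it called 5.43% of all genes. Limma voom called 3 of the 12, of which 1 was higher, where it called 12.7% of all genes.

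Between SHR-TMAO and WKY, edgeR called 0 of the 12, where 3.62% of all genes were called. At an unadjusted p under 0.05 there was 1, beside 23.4% of all genes. DESeq2 called 1 of 17, which was higher (5.13% of all genes), and limma voom 0 of 12 (5.74%). With no limit on the fold edgeR called 1, where 7.75% of all genes were called: a gene 849.6 kb upstream whose log2 fold change was 0.36 (edgeR adjusted p = 0.0312). Between SHR-TMAO and SHR-Water, edgeR called 0 of the 12, with 4 at an unadjusted p under 0.05, beside 25% of all genes. DESeq2 called 0 of 14 (2.96% of all genes), and limma voom 1 of 12, which was lower (8.46%).

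The neighbours closest to Ephx2 on either side were hardly expressed. The gene that lies 5.90 kb downstream of it, on the same strand, had at most 0.255 CPM in any rat. The gene that lies 14.6 kb upstream, on the other strand, had at most 0.356 CPM. Neither was tested. The nearest tested gene, 33.0 kb upstream and on the same strand as Ephx2, had 15.2 ± 3.77 CPM in WKY and 15.7 ± 2.65 in SHR-Water (SD, n = 6 each). Its WKY rats ran from 10.7 to 21.5 CPM (median 14.4) and its SHR-Water rats from 13.6 to 20.8 (median 15.1), so these groups overlapped. Its log2 fold change was 0.01 with a standard error of 0.18 (adjusted p = 0.969 by edgeR).

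The most abundant gene of this stretch lies 91.4 kb downstream. It ran from 318.2 to 478.9 CPM in WKY (median 374.7), from 211.7 to 467.9 in SHR-Water (median 302.9) and from 278.8 to 412.0 in SHR-TMAO (median 339.1). All 3 ranges overlapped, and its log2 fold change of SHR-Water minus WKY was -0.29 with a standard error of 0.18 (edgeR adjusted p = 0.327). Per exon length, it was the 1 gene of the 30 in this stretch above Ephx2 in SHR-Water, with 174.4 FPKM, and in SHR-TMAO, with 178.4. In WKY, where this gene had 206.5 FPKM, Ephx2 ranked 7 of the 30.

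The neighbour that was called lies 213.6 kb upstream on the other strand and went the opposite way. In WKY it ran from 2.05 to 3.93 CPM (median 2.68), in SHR-Water from 0.279 to 1.16 (median 0.697) and in SHR-TMAO from 0.0691 to 3.74 (median 1.28). WKY and SHR-Water did not overlap, as in 4.1% of all genes tested, whereas SHR-TMAO spanned both. Its log2 fold change of SHR-Water minus WKY was -1.90 with a standard error of 0.32 (adjusted p = 0.00324 by edgeR). For SHR-TMAO minus WKY it was -0.89 with a standard error of 0.51 (edgeR adjusted p = 0.319), and for SHR-TMAO minus SHR-Water 1.03 with a standard error of 0.57 (edgeR adjusted p = 0.271). This gene has few reads, 491 over all 18 rats.

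**Figure D3:**
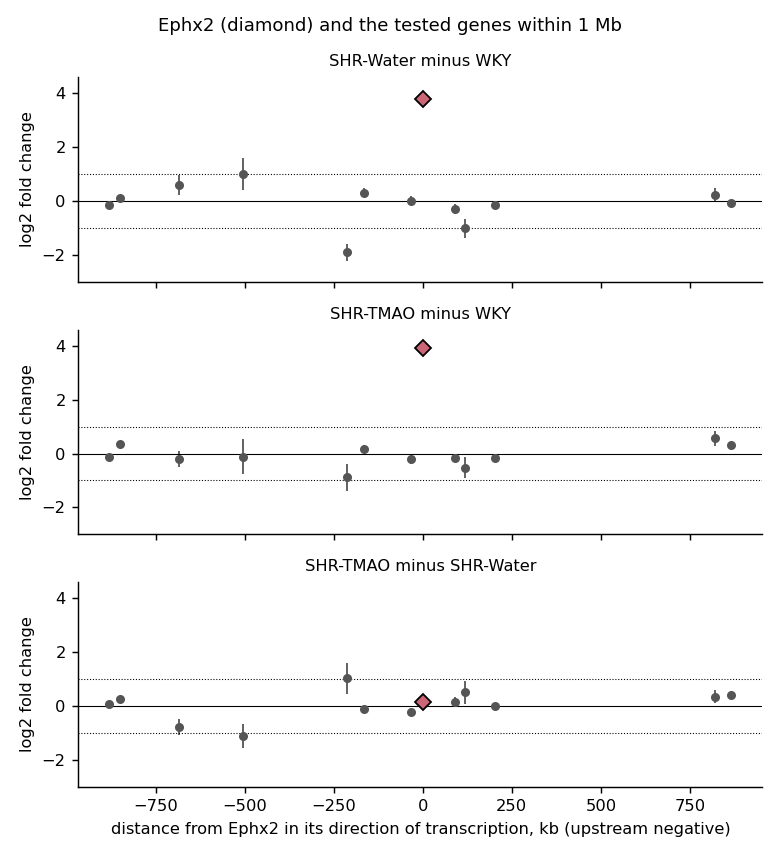
Log2 fold changes (points, with standard errors as bars) of Ephx2 (diamond, at 0) and of the 12 tested genes within 1 Mb, against the distance from Ephx2 in kb in its direction of transcription (upstream negative), for each pair of groups. Dotted lines mark a log2 fold change of 1 in either direction. Ephx2 lies at 3.81 and 3.92 in the comparisons with WKY, where the highest neighbours are at 1.01 and 0.56, and the point at -1.90 in the upper panel is the neighbour that was called lower.

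Over the whole of chromosome 15, 10 of 357 other genes tested were called between SHR-Water and WKY, 3 higher and 7 lower (2.80%, beside 3.42% of all genes). Between SHR-TMAO and WKY 8 of 345 were called, 3 higher and 5 lower (2.32%, beside 3.62%, of which 2.17% lower). In both comparisons 0 of these genes had a higher log2 fold change than Ephx2.

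Over the 18 rats, the genes whose pattern was most like that of Ephx2 were those that separate the strains, and they lay on many chromosomes. Likeness was measured by Pearson's r of log2(CPM + 1) with 13345 other genes, as a description. The 2 levels of Ephx2 dominate such an r, since the rats fall into separate clusters, so the values within groups are given beside it. Ephx2 was picked for its difference between strains, so a high r with other such genes follows partly from that choice. A gene near zero in WKY or in the SHRs passes the filter only through the other rats. Of these genes, 27 had an r above 0.9 and 50 had an r below -0.9, and the median absolute r was 0.282. Among the 50 genes with the highest r, chromosomes 1, 2, 4 and 20 held 5 each and chromosome 15 held 1. The share of all genes on each chromosome was not set beside these counts. None of the 50 was within 1 Mb of Ephx2, where only 13 of the 13345 genes lay, so few or none would be there in any case.

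The most similar gene was ENSRNOG00000001701 on chromosome 11 (33909439 to 33917674), with r = 0.985 over 18 rats. It ran from 0.0486 to 0.956 CPM in WKY (median 0.288), from 126.0 to 288.4 in SHR-Water (median 190.4) and from 220.8 to 334.7 in SHR-TMAO (median 299.3). It was near zero in WKY, where Ephx2 was not. With the group means subtracted its r with Ephx2 was -0.10. Within the 12 SHRs r was -0.03, which pools -0.19 in SHR-Water and -0.84 in SHR-TMAO (n = 6 each).

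Next was ENSRNOG00000042912 on chromosome 10, with r = 0.982. It ran from 0.0972 to 0.510 CPM in WKY (median 0.182), from 5.68 to 9.06 in SHR-Water (median 6.18) and from 6.22 to 9.10 in SHR-TMAO (median 6.77). Its level was far lower than that of Ephx2, and with the group means subtracted its r was 0.02.

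The genes most opposite to Ephx2 were ENSRNOG00000062283 on chromosome 1 and ENSRNOG00000045989 on chromosome 10, each with r = -0.985. The first ran from 35.6 to 66.8 CPM in WKY (median 53.8) and from 0 to 0.321 in the SHRs of both groups. The second ran from 12.6 to 47.2 CPM in WKY (median 18.2) and from 0 to 0.245 in the SHRs. Both were read at most 6 times in any SHR, so that they were at the limit of what these libraries detect there.

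**Figure D4:**
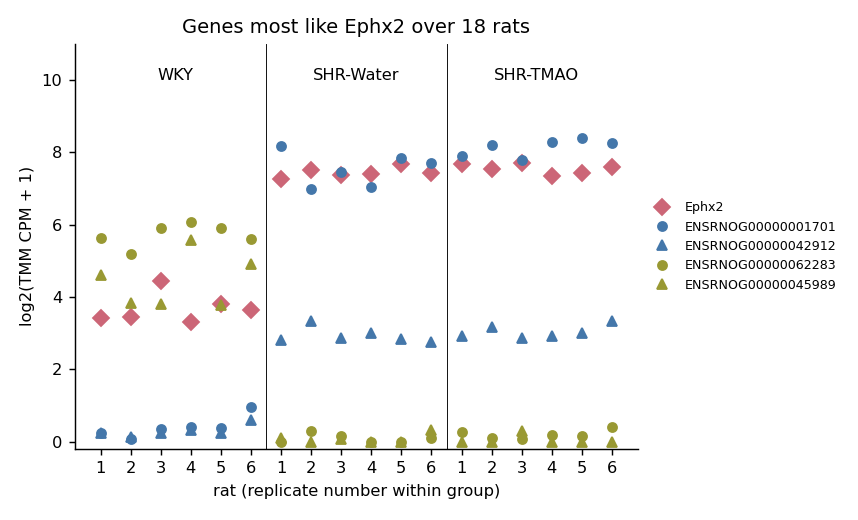
Levels as log2(CPM + 1) of Ephx2 and of the 2 genes most like it and the 2 most opposite to it, in each of the 18 rats, by group and replicate number. Blue symbols rise with Ephx2 between WKY and the SHRs and olive symbols fall, to between 0 and 0.321 CPM in the SHRs.

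With the group means subtracted, few genes followed Ephx2 closely over the 18 rats. Such an r weighs the WKY rats most. Their log2 CPM of Ephx2 had an SD of 0.444, against 0.145 (SHR-Water) and 0.144 (SHR-TMAO). WKY replicate 3 lay farthest from its group mean, at 4.37 against 3.55. An r in this form therefore rests heavily on that 1 library, and such values are not given here without it. With group means subtracted, the 50 genes most like Ephx2 over 18 rats had a median r of -0.08 with it (from -0.47 to 0.50). Of them, 0 were among the 50 with the highest r in that form, a list of 50 out of 13345 genes. In that form 5 of the 13345 genes had an r above 0.7 and 9 had an r below -0.7, with extremes of 0.79 and -0.79. Within the 12 SHRs r ran from -0.93 to 0.89. Of the neighbours within 1 Mb, 13 had enough counts over the 18 rats, and their median r with group means subtracted was -0.03 (from -0.37 to 0.50). Such values are extremes, counts or medians over many genes in few rats, and no p-value was computed.

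Some properties of the libraries moved with Ephx2 within groups. With group means subtracted, over 18 rats, Pearson's r of log2 CPM of Ephx2 was -0.48 with the log2 library total (Spearman's rho -0.33), 0.45 with the mitochondrial share (rho 0.39) and 0.24 with the gene length trend (rho 0.19). With the number of genes that had a count it was 0.02. Without the 2 libraries farthest from the median of each property, r was -0.38, 0.57, 0.26 and 0.12, in this order. The groups differed: in WKY, SHR-Water and SHR-TMAO, r was -0.53, -0.35 and -0.26 with the total. It was 0.62, 0.18 and 0.53 with the mitochondrial share and 0.20, 0.21 and 0.73 with the length trend. These properties also differed between the groups on average, with overlapping ranges. In the same order of groups, the mean mitochondrial share was 14.9%, 21.4% and 16.8%, and the mean length trend was -0.07, 0.19 and -0.16. WKY replicate 3, the high rat of its group, had the lowest total of all, 10774133 counts, and a mitochondrial share of 20.6%. The part of these library properties in the spread of Ephx2 was not tested. With mitochondrial genes left out, the log2 fold change of SHR-Water minus WKY was 3.83, and with the gene length trend as an offset it was 3.78.

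**Figure D5:**
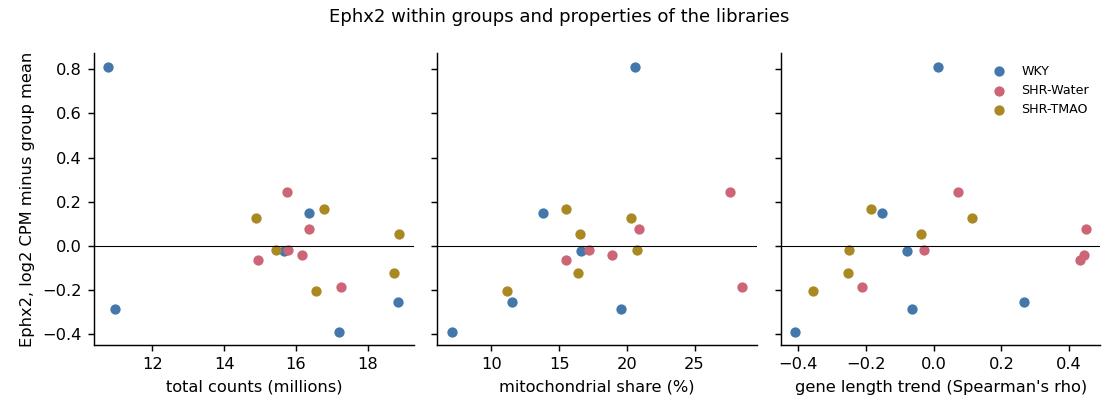
Ephx2 in each rat as log2 CPM minus its group mean (vertical), against the library's total counts in units of 1000000, its mitochondrial share in percent and its gene length trend as Spearman's rho (horizontal, left to right). Colours are the 3 groups, and the point highest in each panel is WKY replicate 3, at the smallest total of 10774133 counts.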

How the data were processed

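RNA of vWAT was sequenced from libraries made with SMART technology, 1 per rat. Per the labels and the file headers, the authors used cutadapt 2.5, HISAT2 2.1.0 and featureCounts 1.6.3 (reverse-stranded, exons, Ensembl release 96, Rnor_6.0; the methods name GENCODE) and deposited the raw read counts per gene, with exon lengths, without normalization. The labels also name DESeq2.

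Everything else was computed from these counts. Group comparisons used edgeR 4.0.16 in R 4.3.3 (TMM, filterByExpr, quasi-likelihood test, Benjamini-Hochberg adjustment over all genes tested), fitted on the 2 groups compared. Calls needed an adjusted p under 0.05 and a log2 fold change of 1 or more in size. Standard errors of edgeR were computed from the log2 fold change and the F statistic of its test. DESeq2 1.42.0 and limma 3.58.1 were alternatives. FPKM, correlations and permutation tests used Python 3.11.15 and scipy 1.17.1. The fits were run on simulated data with the same dispersion for every gene, where only well-read genes were changed. There edgeR recovered 200 of 200 genes changed 4-fold with 0 false calls among 12777 genes between SHR-TMAO and SHR-Water. These changes were large, and the simulated libraries differed in depth alone. The result therefore does not show how many changes would be found or missed in the real counts.

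The gene, the window around it and the lists were chosen with earlier results of these data known. Reference names matched 0 of the identifiers, so pathway genes and cell type markers were not analysed here, and beside Ephx2 at most 2 identifiers that rose and 2 that fell, by highest and lowest r, are named; neighbours are given by distance, being the nearest on each side, those called and the most abundant, the last chosen after its values were seen.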

Additional observations from a re-analysis of the deposited data

Results flagged for a closer look

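WKY replicate 3 stood apart from the other WKY rats in Ephx2, at 20.6 TMM-normalized CPM where the other 5 lay between 8.96 and 13.0. Its gap to the nearest rat was 65.4% of the range of the group. Of 15 groups of 6 values looked at (Ephx2 and 4 properties of the libraries in each group of rats), this was the 1 that stood apart, where chance gives about 1 in 20. The rat was still below every SHR, the lowest of which had 152.5 CPM.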

How the results depend on the processing

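The log2 fold change of Ephx2 stayed between 3.73 and 4.01 for SHR-Water minus WKY and between 3.85 and 4.15 for SHR-TMAO minus WKY over 22 alternatives each, within the spread between rats. For SHR-TMAO minus SHR-Water it stayed between 0.02 (library totals without TMM) and 0.20 (gene length offset) over 21 alternatives, with adjusted p-values (edgeR, DESeq2 or limma) of 0.288 to 0.943 and 0 unadjusted p under 0.05. With each rat left out in turn it ran from 0.10 to 0.19. The neighbour 213.6 kb upstream kept its call between SHR-Water and WKY in 21 of 21 alternatives, from -2.05 to -1.74 and with an adjusted p of up to 0.0256. The number of neighbours called between SHR-Water and WKY, 1, became 2 with DESeq2 (both lower) and 3 with limma voom (1 higher), and ran from 1 to 2 with each rat left out (1 higher without WKY replicate 2). Between SHR-TMAO and WKY, 0 became 1 with DESeq2 and 1 with no fold limit. Between SHR-TMAO and SHR-Water, 0 became 1 with limma voom. The gene with the highest Pearson's r had a Spearman's rho of 0.664, and 12 of the 50 most similar genes were shared in that form. It was not the most similar gene by rho, since a gene on chromosome X had 0.835. The cause of these changes was not tested. With the replicate number as a block, Ephx2 had a log2 fold change of 0.13 between the hypertensive groups (edgeR adjusted p = 0.601). Same-numbered rats of these groups deviated together in 0 of 6 pairs (r of -0.41 to -0.01), those of SHR-TMAO and WKY in 1 of 6 (r of -0.24 to 0.31), and those of SHR-Water and WKY in 5 of 6 (r of -0.33 to 0.57). No 2 groups had every pair above an r of 0.1, so the numbers were not taken to pair the rats. The r of differently numbered rats is not given here, so this rule does not decide whether same-numbered rats were linked. With the block, Ephx2 had a log2 fold change of 3.86 for SHR-Water minus WKY and 3.97 for SHR-TMAO minus WKY, and the counts of neighbours called were the same. The alternatives for the pathway lists were not run, since they need gene names. Counting error was largest in WKY, at 108 to 229 reads per rat. It gave a coefficient of variation of 7.74% there, where that between rats was 35.5% with the high replicate 3 included.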
